A study of Mus musculus with 23 samples.

Results

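Potassium channel genes were examined across 23 single neurons of the mouse arcuate hypothalamus. The members were chosen by name: every gene of the deposited table whose symbol begins with Kcn followed by letters and a digit, leaving out the antisense RNA Kcnq1ot1, together with Abcc8, which encodes the sulfonylurea receptor of the KATP channel. This gave 94 of the 23400 genes of the table, 93 of them Kcn genes. The cells formed 1 group with no control. They came from 2 young adult male mice of mixed background, and the labels do not tie a cell to a mouse. Both mice were vGLUT2-IRES-Cre::loxSTOPlox-L10-GFP, so that GFP on a ribosomal protein marks cells in which Cre, expressed with the vesicular glutamate transporter gene Slc17a6, has acted at any time of life. Tissue was digested with papain, cells showing GFP were collected manually, and polyadenylated RNA of each was amplified with the SmartSeq2 method. Cell titles carry one of 2 prefixes, JCb5.2 (15 cells, numbered 1 to 15 here) and JCb6 (8 cells, numbered 16 to 23), whose meaning the labels do not give. Cells are not replicates of a condition and no test was made between them.

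Potassium channels let potassium leave the cell and so pull the membrane towards rest. Voltage-gated Kv channels open on depolarisation and shape the action potential, calcium- and sodium-activated channels open during and after firing, inward rectifiers and 2-pore-domain (K2P) channels set the resting potential, and accessory subunits such as KChIP, Kv beta and KCNE proteins tune the pore-forming ones. In the arcuate nucleus, KATP channels close when ATP is high and are known as part of the glucose response of proopiomelanocortin (Pomc) neurons, GIRK channels open downstream of inhibitory receptors such as those for GABA and opioids, and the M-current of KCNQ channels restrains firing. Pomc neurons release melanocortins and restrain feeding. Kisspeptin (Kiss1) neurons drive the release of gonadotropins.

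Levels are in FPKM, a fragment count scaled by the length of the gene and the size of the library. A gene was counted in a cell at 1 FPKM or more. These facts about single libraries limit every count here: an RNA that was present can be missed, and a value of 0 says only that the gene is listed at 0. FPKM table sums ran from 379513 to 687511, and the relative depth of the libraries, read from the spacing of the lowest values, differed up to 4.17 times, from 0.590 in cell 14 to 2.46 in cell 20. The number of genes at 1 FPKM or more had a median of 7090 per cell, from 4054 in cell 17, which stood below all others, to 8042 in cell 13. The neuronal genes Uchl1, Stmn2, Snap25, Meg3 and Tubb3 were at 1 FPKM or more in all 23 cells. Of the other neuron markers on the list, Map2 was in 20 cells and Rbfox3 in 5, never over 1.87 FPKM. Slc17a6, the gene whose Cre allele marked the cells, lay between 0.520 and 139 FPKM with a median of 32.1.

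For description by peptide type, the cells were split by Pomc and Kiss1 themselves. With Pomc at 1000 FPKM or more there were 8 cells, here called Pomc cells (cells 4, 5, 6, 11, 12, 13, 21 and 22). With Kiss1 at 500 FPKM or more there were 5, called Kiss1 cells (cells 8, 17, 19, 20 and 23). The other 10 cells passed neither value, and no cell passed both. The lowest Pomc level inside its class was 1488 FPKM in cell 22 and the highest outside was 922 FPKM in cell 3. For Kiss1 these values were 895 FPKM in cell 23 and 62.5 FPKM in cell 21. Prefix and type overlapped in part: 6 of 8 Pomc cells carried JCb5.2 and 4 of 5 Kiss1 cells carried JCb6.

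Of the 94 potassium channel genes, 71 (75.5%) were found at 1 FPKM or more in at least 1 cell, beside 63.7% of all 23400 genes. In at least 12 cells there were 21 members (22.3%), beside 27.8% of all genes. No member was at 1 FPKM or more in all 23 cells, beside 7.2% of all genes. Most members were thus found somewhere, and few of them in most cells, a pattern that all genes of the table shared. The finer counts that follow have no share over all genes beside them. A further 14 members were found in 6 to 11 cells, 36 in 1 to 5 cells (13 of these in exactly 1), and 23 in none.

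Member levels were mostly low, as were levels over all genes. Among the 2162 member values, 942 (43.6%) were exactly 0, beside 49.3% of all values in the table. From 1 to under 10 FPKM lay 310 (14.3%, beside 12.1%), and from 10 to under 100 lay 217 (10%, beside 13.6%). At 100 or more there were 5 (0.231%, beside 3.8%). All 5 of these highest values belonged to the KChIP genes Kcnip1 and Kcnip4, which encode calcium-binding subunits of A-type Kv channels.

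**Figure D1:**
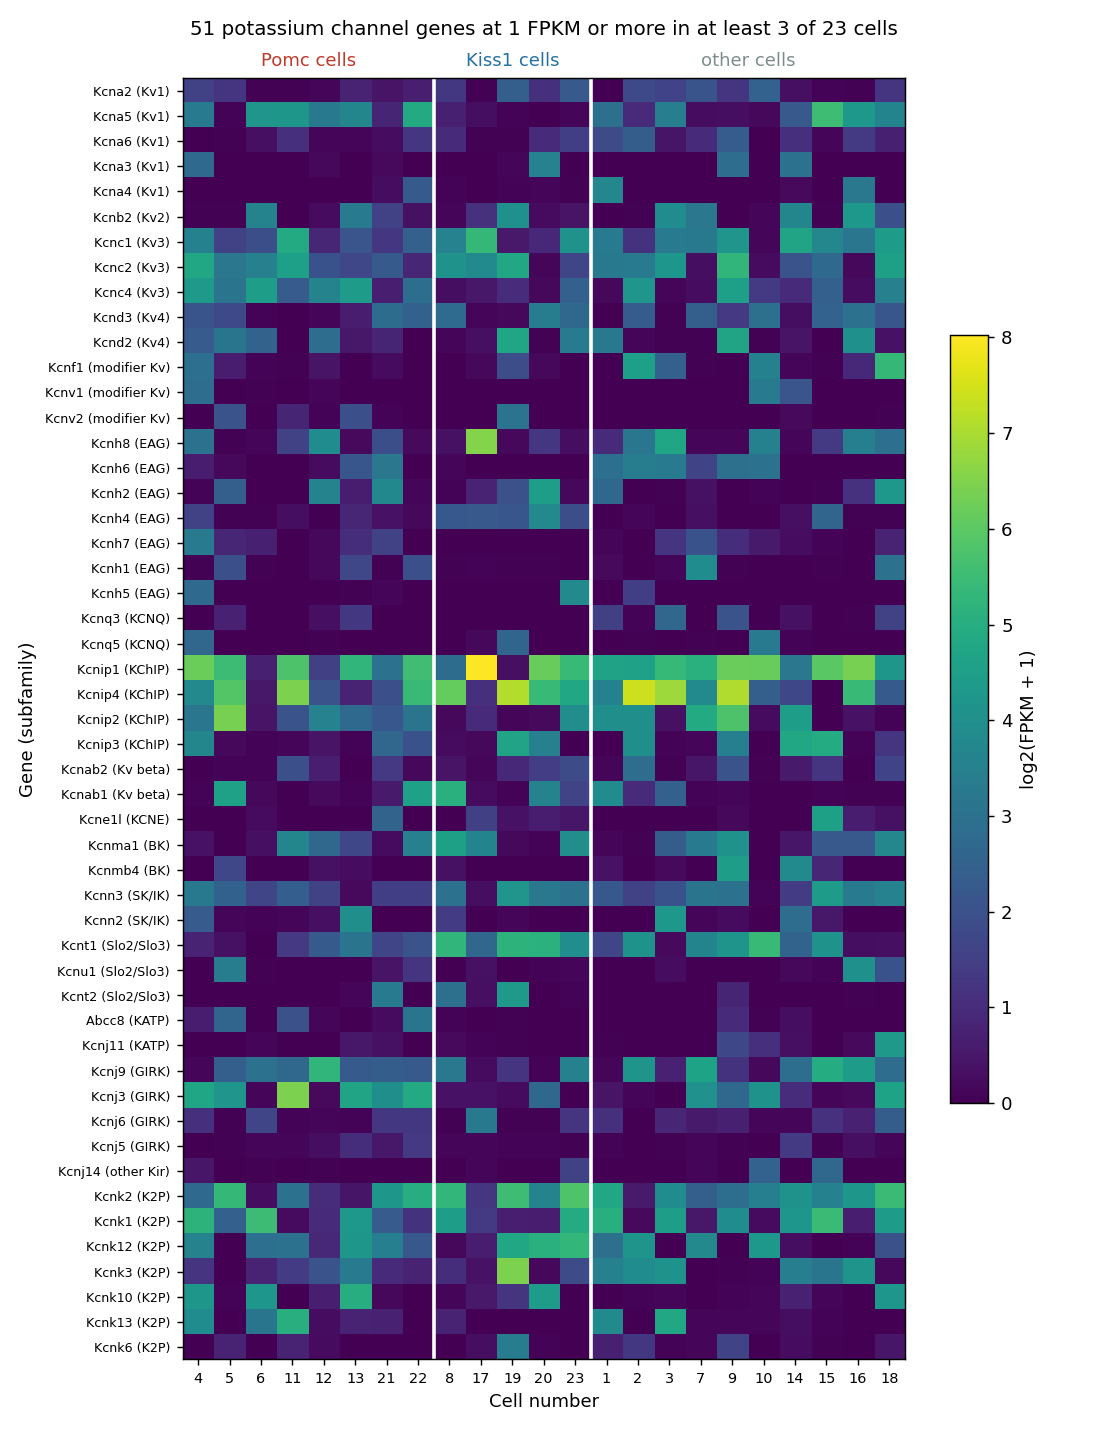
Level of potassium channel genes found at 1 FPKM or more in at least 3 cells, as log2(FPKM + 1) by colour, with 1 row per gene grouped by subfamily and 1 column per cell grouped by peptide type. Shown are 51 of the 54 such genes, and they include a few broad rows (Kcnip1, Kcnip4, Kcnk2, Kcnn3) and many rows with single bright cells.

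These stretches of DNA are printed because they lie upstream of genes with large contrasts between Pomc and Kiss1 cells described below. Kcnt1, with the largest mean difference, had no window in the table used. Each is the 250 bases before the gene's start in the RefSeq table of build GRCm38.p6, which is mm10, read 5′ to 3′ on the gene's strand, and a window existed for 68 of the 94 members. Capitals mark a GC box (GGGCGG, a binding motif of Sp-family factors) or an E-box (CANNTG, the motif of basic helix-loop-helix factors), searched on both strands. The Kcnh4 window is chr11:100759779-100760028 on the minus strand, that of Kcnj3 is chr2:55435720-55435969 on the plus strand, and that of Kcna5 is chr6:126535556-126535805 on the minus strand. The RefSeq start of Kcnj3 lies upstream of the start of its locus in the deposited table.
Kcnh4: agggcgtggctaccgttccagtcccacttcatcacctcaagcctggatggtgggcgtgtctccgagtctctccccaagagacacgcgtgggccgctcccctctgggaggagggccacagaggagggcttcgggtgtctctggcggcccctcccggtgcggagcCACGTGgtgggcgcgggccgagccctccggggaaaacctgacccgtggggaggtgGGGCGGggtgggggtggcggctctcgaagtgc
Kcnj3: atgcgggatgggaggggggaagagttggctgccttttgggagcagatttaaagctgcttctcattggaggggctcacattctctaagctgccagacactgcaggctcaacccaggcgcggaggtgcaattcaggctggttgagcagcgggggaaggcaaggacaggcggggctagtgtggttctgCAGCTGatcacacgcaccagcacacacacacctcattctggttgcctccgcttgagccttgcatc
Kcna5: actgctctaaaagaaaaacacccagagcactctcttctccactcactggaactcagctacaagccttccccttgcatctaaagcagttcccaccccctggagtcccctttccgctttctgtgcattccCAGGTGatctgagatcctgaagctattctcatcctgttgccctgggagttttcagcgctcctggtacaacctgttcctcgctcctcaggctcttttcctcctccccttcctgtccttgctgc

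The Kcnh4 window had 1 GC box, starting at position -32 from the start site, and 1 E-box at -87. The Kcnj3 window held 1 E-box at -65 and the Kcna5 window 1 E-box at -122, and neither held the GC box. These motifs are common: among all 32851 windows of the table, 32.7% hold the GC box and 66.2% the E-box. None of these 3 windows held the letters of the TATA box (TATAAA, in 12.4% of windows), the CRE core (TGACG, in 17.8%) or the AP-1 motif (TGANTCA, in 6.75%). G and C made up 70.8% of the Kcnh4 window, 58.4% of the Kcnj3 window and 53.2% of the Kcna5 window, beside a median of 52.4% over all windows and 58.8% over the 93 windows of member genes.

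The number of potassium channel genes in a cell ranged from 16 in cells 6 and 17 to 31 in cells 9 and 18, with a median of 24 (SD 4.34 over 23 cells). This was between 0.221% and 0.448% of the genes found in the same cell. The median was 24 in the 15 JCb5.2 cells and 23.5 in the 8 JCb6 cells. Cell 17 had both the fewest genes of any kind and the joint fewest members, whereas cell 6 had as few members among a number of genes near the median. By type the medians were 24 in Pomc cells, 21 in Kiss1 cells and 24 in the others, and the ranges overlapped almost wholly (16 to 30, 16 to 27 and 17 to 31).

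**Figure D2:**
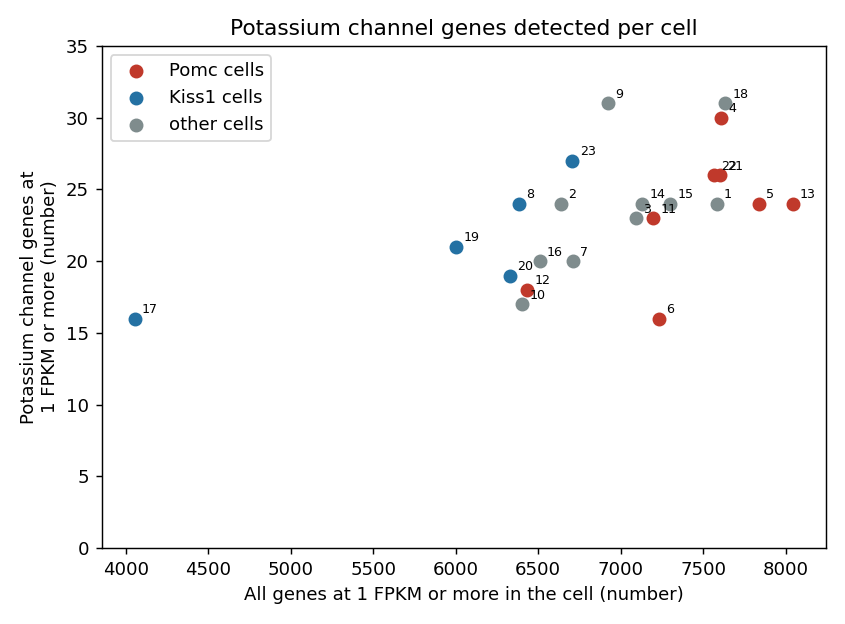
Number of potassium channel genes at 1 FPKM or more in each cell (vertical axis) against the number of all genes at 1 FPKM or more in the same cell (horizontal axis), 1 point per cell, coloured by peptide type. Cell 17 sits apart at 4054 genes, and the remaining cells carry between 16 and 31 potassium channel genes.

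Summed over members, the level had a median of 368 FPKM, from 152 in cell 21 to 572 in cell 9, and made up 0.0273% to 0.122% of a cell's table sum. In Pomc cells the sum was lower in the middle (median 269 FPKM, 152 to 422) than in Kiss1 cells (median 389 FPKM, 354 to 506), and the others lay between at a median of 358 FPKM. Pomc and Kiss1 cells overlapped. A single gene often led the sum: Kcnip1 was the highest member in 9 cells, Kcnip4 in 6, Kcnk1 and Kcnk2 in 2 each, and Kcnip2, Kcnip3 and Kcnj9 in 1 each. The leader's share ran from 11.9% of the member sum to 57.1%, the latter for Kcnip1 in cell 17.

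KChIP genes and K2P genes had the highest summed levels of the subfamilies at the median. The 4 KChIP genes summed to a median of 91.9 FPKM (1.44 to 271), which is 29.7% of the member sum at the median, and the 14 K2P genes to 51.0 FPKM (4.50 to 169.8), or 16.5%. Both subfamilies together made up 14.0% to 65.6% of the member sum of a cell, with a median of 48.6%. All 17 subfamilies had at least 1 member in at least 1 cell, and 12 had a member in 12 cells or more. The 5 without such a member were the modifier Kv genes, the Kv beta genes, the KCNE genes, the KATP genes and the remaining inward rectifiers.

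**Figure D3:**
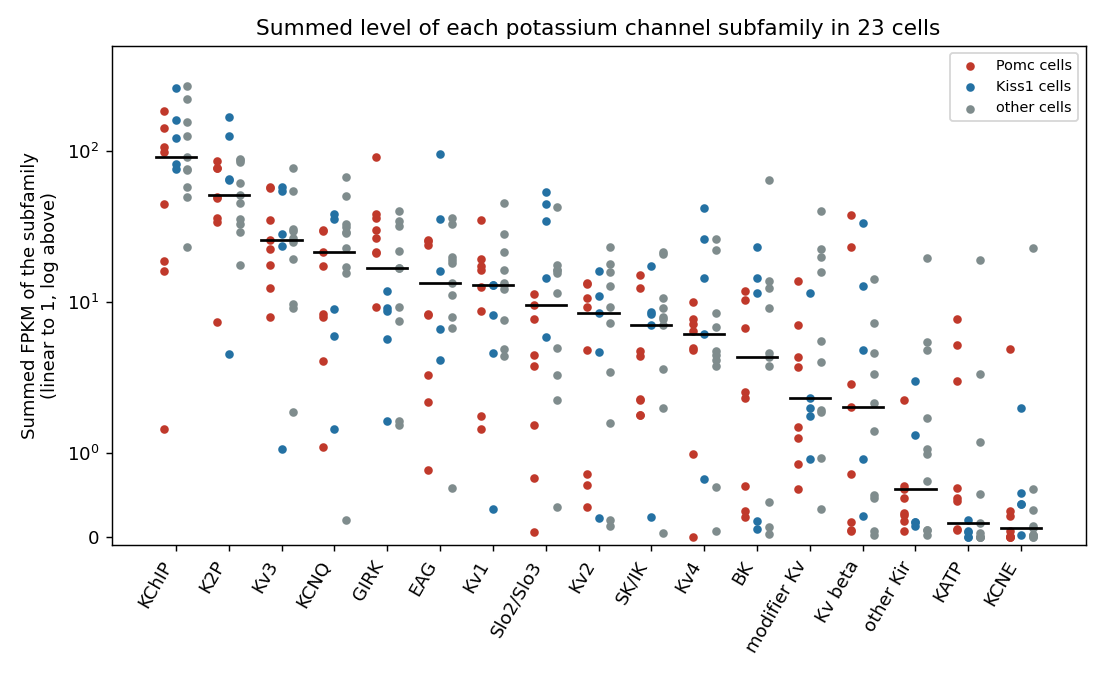
Summed FPKM of each potassium channel subfamily in each of the 23 cells (points, coloured by peptide type), with the median as a bar and a vertical axis that is linear up to 1 FPKM and logarithmic above. KChIP and K2P have the highest medians (91.9 and 51.0 FPKM), and KATP, other inward rectifiers and KCNE lie below 1 FPKM at the median.

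Kv1 genes encode delayed and low-threshold potassium channels of axons and nodes. In this subfamily 7 of 8 members were found in at least 1 cell, led by Kcna2 and Kcna5 with 12 cells each. Kcna2, the axonal subunit, stayed low with a median of 1.17 FPKM and a highest value of 4.76 in cell 10. Kcna5 was higher where found, with a median of 3.69 FPKM and 45.3 FPKM in cell 15, and it is described by type below. Kcna1, the usual axonal partner of Kcna2, was found in 1 cell (4.42 FPKM in cell 9). Kcna6 was found in 8 cells with a highest value of 4.17 FPKM, Kcna3 in 4 (5.70 to 10.9 FPKM where found), Kcna4, an A-type subunit, in 3 (3.79 to 12.1 FPKM) and Kcna10 in 2, while Kcna7 was listed at 0 throughout. Of Kcna6's annotated exon bases, 39.6% are shared with the antisense gene Gm26673, and the labels do not say that strand was kept, so reads of the 2 genes cannot be told apart.

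Kv2 channels carry the slow delayed rectifier of the cell body. Kcnb2 was found in 10 cells, with 18.4 FPKM in cell 16 as its highest value. Kv3 channels, which close fast and allow firing at high rates, were found in 22 of 23 cells. Kcnc1 was in 19 cells (median 8.47 FPKM, highest 40.1 in cell 17), Kcnc2 in 18 (median 8.17, highest 37.8 in cell 9) and Kcnc4 in 14 (median 3.95, highest 22.2 in cell 9). At least 3 Kv3 genes were found in 14 cells, so most cells with any Kv3 gene had several.

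A-type current, which inactivates fast and delays the first spike, is carried by Kv4 pores with KChIP subunits. Of the Kv4 pore genes, Kcnd3 was found in 14 cells (median 3.25 FPKM, highest 9.57 in cell 20), Kcnd2 in 9 (highest 26.0 in cell 19) and Kcnd1 in 1, cell 20, at 32.4 FPKM. Among the KChIP genes, Kcnip1 and Kcnip4 had higher medians than any Kv4 gene. Kcnip1 was found in 21 cells (91.3%, with exact Clopper-Pearson bounds at 95% confidence of 72.0% and 98.9%), its median being 41.0 FPKM and its highest value 260.0 FPKM in cell 17. It was under 1 FPKM in cells 6 and 19, at 0.624 and 0.245 FPKM. Kcnip4 was in 20 cells (87.0%, bounds 66.4% and 97.2%), and reached 169 FPKM in cell 2 around a median of 13.5 FPKM. Kcnip2 was in 13 cells (median 3.52 FPKM, 82.1 in cell 5) and Kcnip3, also known as a transcriptional repressor, in 10 (median 0.179 FPKM, 29.4 in cell 15), the latter below Kcnd3 and Kcnd2 at the median. A Kv4 pore and a KChIP gene were found together in 17 cells, a KChIP gene without a Kv4 pore gene in 5 and the reverse in 1. All 14 cells with Kcnd3 also had Kcnip1, and 8 of the 9 cells with Kcnd2 had Kcnip4. Since Kcnip1 was in 21 and Kcnip4 in 20 of the 23 cells, most cells with any gene would also have them.

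The modifier Kv genes encode subunits that conduct only together with Kv2 pores. Of the 10, 7 were found in at least 1 cell, in few cells each: Kcnf1 in 6 cells with 39.3 FPKM in cell 18, Kcnv1 in 3 (3.30 to 8.95 FPKM where found), Kcnv2 in 3 (2.87 to 7.25 FPKM) and Kcng1, Kcng2, Kcns2 and Kcns3 in 1 each. Kcnf1 was found in 4 of the 10 other cells and in 1 each of the Pomc and Kiss1 cells. Kv beta subunits, which speed inactivation and aid traffic of Kv1 pores, were found in 13 cells: Kcnab2 in 8 (highest 6.31 FPKM in cell 2), Kcnab1 in 7 (33.1 FPKM in cell 8) and Kcnab3 in 1 (14.7 FPKM in cell 5). Kcna2 and Kcnab2 were found together in 5 cells. Among the 5 KCNE genes only Kcne1l passed 1 FPKM in any cell, in 3 cells with 22.9 FPKM in cell 15.

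The EAG family (EAG, ERG and ELK channels) includes the ERG pores that repolarise slowly and set spike-frequency adaptation. Kcnh8, an ELK gene, was found in 12 cells and had its highest value, 91.0 FPKM, in cell 17, beside a median of 1.40 FPKM. The ERG genes Kcnh2, Kcnh6 and Kcnh7 were found in 8, 8 and 6 cells, with highest values of 21.3 FPKM (cell 20), 9.31 FPKM (cell 2) and 8.60 FPKM (cell 4). The EAG genes Kcnh1 and Kcnh5 were found in 5 and 3 cells, reaching 14.0 FPKM in cell 7 and 13.0 FPKM in cell 23. Kcnh4, the other ELK gene found, was in 7 cells, 5 of which were the Kiss1 cells. Kcnh3 was listed at 0 in every cell.

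KCNQ channels carry the M-current, which is shut by muscarinic and other Gq-coupled receptors. Kcnq3, a subunit of the neuronal M-channel, was found in 5 cells and never above 5.21 FPKM (cell 3). Kcnq5 was found in 3 cells (5.09 to 8.80 FPKM where found), none of which had Kcnq3. Kcnq1, best known from heart and inner ear, was at 1.79 FPKM in cell 7.

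Among channels opened by calcium, the small-conductance gene Kcnn3, which carries part of the afterhyperpolarisation, was found in 20 cells at low levels (median 4.30 FPKM, highest 20.4 in cell 15). Kcnn2 was in 5 cells, all with the JCb5.2 prefix, with 18.6 FPKM in cell 3 and 15.0 FPKM in cell 13. Kcnn1 was never at 1 FPKM and Kcnn4, an immune-cell gene, was listed at 0. The large-conductance (BK) pore Kcnma1 was found in 13 cells (median 3.74 FPKM, highest 22.9 in cell 8). Its brain beta subunit Kcnmb4 was found in 3 cells, with 20.997 FPKM in cell 9, 13.4 FPKM in cell 14 and 2.28 FPKM in cell 5. Pore and beta subunit met in 1 cell, cell 9, which also held the 1 value of Kcnmb3 over 1 FPKM (27.6 FPKM). Without strand, reads of Kcnmb4 cannot be told apart from its antisense gene Kcnmb4os2, which shares 20.8% of its exon bases. Kcnt1, the sodium-activated channel also called Slack, was found in 17 cells (median 4.84 FPKM, 42.4 in cell 10), its relative Kcnt2 in 3 (6.86 to 18.9 FPKM where found), and Kcnu1, best known from sperm, in 4 (1.33 to 15.3 FPKM).

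GIRK channels are assembled from the products of Kcnj3, Kcnj5, Kcnj6 and Kcnj9. Kcnj9 was found in 17 cells (73.9%, interval 51.6% to 89.8%) with a median of 4.42 FPKM and 37.8 FPKM in cell 12. Kcnj3 was in 12 cells (52.2%, interval 30.6% to 73.2%) with a median of 1.04 FPKM but 85.8 FPKM in cell 11. Kcnj6, which can form channels by itself, was in 9 cells and never over 8.53 FPKM (cell 17), and Kcnj5, the cardiac partner, was in 3 at 1.09 to 1.60 FPKM. At least 1 GIRK gene was found in 22 cells, the exception being cell 3. A single gene was found in 9 cells, 2 genes in 8, 3 genes in 4 (cells 13, 14, 18 and 21) and all 4 in cell 22. By pair, Kcnj3 and Kcnj9 were found together in 9 cells, Kcnj6 and Kcnj9 in 6, Kcnj3 and Kcnj6 in 4, and Kcnj3 and Kcnj5 in 3.

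KATP channels need a pore (Kcnj11 in neurons, Kcnj8 in vessels) and a sulfonylurea receptor (Abcc8 or Abcc9). Kcnj11 lies at chr7:46097123-46100764 and Abcc8 beside it at chr7:46104523-46180033, both on the minus strand of mm10. Kcnj11 was found in 3 cells, with 18.9 FPKM in cell 18, 2.36 FPKM in cell 9 and 1.14 FPKM in cell 10. Abcc8 was found in 3 cells (13.0%, interval 2.78% to 33.6%), with 7.77 FPKM in cell 22, 5.17 FPKM in cell 5 and 2.99 FPKM in cell 11. The 3 cells with Kcnj11 belonged to the other cells and the 3 with Abcc8 were Pomc cells. No cell had both genes at 1 FPKM or more, which allows a share of up to 14.8% of cells by the same interval. Cell 9 came close: its Abcc8 level was 0.998 FPKM, and when each cell was rescaled to a sum of 1000000, cell 9 counted as having both. With any value above 0 counted, 6 cells had both. In the 8 Pomc cells, Kcnj11 was listed at 0 in 5 and reached 0.423 FPKM at most. Kcnj8 was listed at 0 in all 23 cells and Abcc9, which is not a member, never passed 0.480 FPKM.

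**Figure D4:**
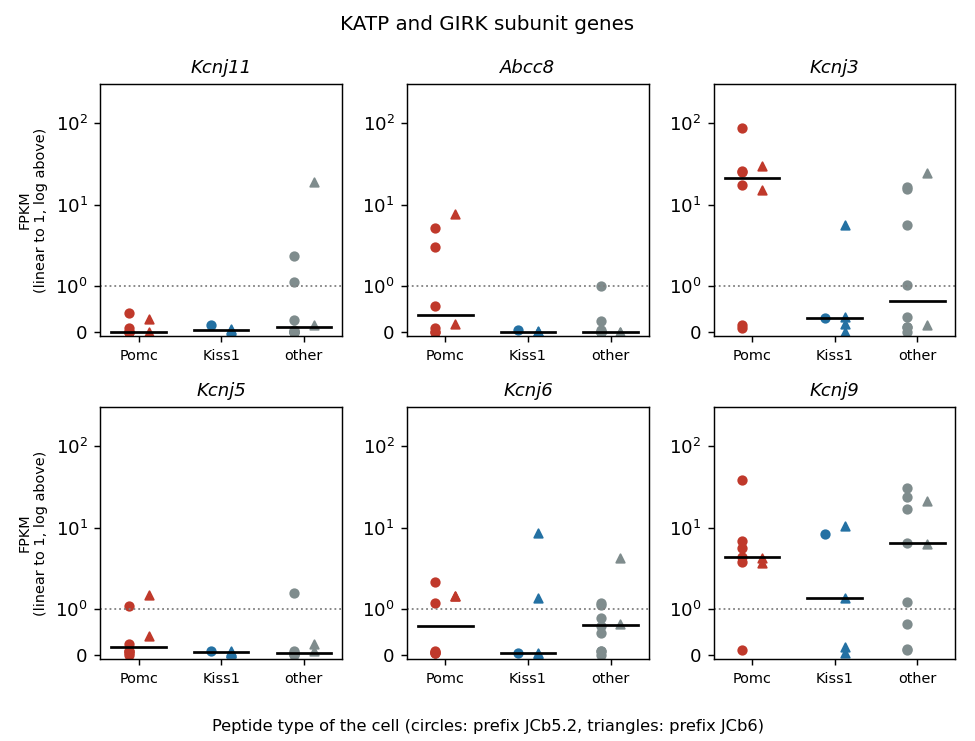
Level of the KATP genes Kcnj11 and Abcc8 and of the 4 GIRK genes in each cell by peptide type, with a bar at each type's median, a dotted line at 1 FPKM and a vertical axis that is linear up to 1 FPKM and logarithmic above. Kcnj3 lies at 14.99 FPKM or more in 6 of 8 Pomc cells and under 1 FPKM in 4 of 5 Kiss1 cells, while Kcnj9 is spread over all types.

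The remaining inward rectifiers were nearly absent from the lists of these cells. Kcnj14 was found in 3 cells (2.01 to 5.53 FPKM where found), Kcnj1, a kidney channel, in 2 (14.0 FPKM in cell 15), and Kcnj12, Kcnj13 and Kcnj4 in 1 each, at 5.27, 1.63 and 1.24 FPKM. Kcnj2, Kcnj10, Kcnj15 and Kcnj16 never reached 1 FPKM. Of the exon bases of Kcnj13, 49.1% are shared with Gigyf2, a gene on the opposite strand, so its 1 value cannot be told apart from reads of that gene.

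K2P channels carry the background or leak current, and every one of the 23 cells had at least 1 of them. Kcnk2 (TREK-1), which responds to stretch, lipids and temperature, was found in 20 cells with a median of 11.1 FPKM and 55.8 FPKM in cell 23. Kcnk1 was in 15 cells (median 4.50 FPKM, 44.8 in cell 6), Kcnk12, a relative of Kcnk13, in 14 (median 6.64, 38.6 in cell 23), and the acid-sensitive Kcnk3 (TASK-1) in 13 (median 1.37, 86.7 in cell 19). Kcnk3's relative Kcnk9 was found in 2 cells, 9 and 3, at 16.9 and 7.32 FPKM, and together with Kcnk3 only in cell 3. Kcnk10 was in 6 cells, of which 5 lay between 17.4 and 30.9 FPKM, Kcnk13 in 5 (7.73 to 32.1 FPKM), Kcnk6 in 3 and Kcnk4 in 2.

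The spread between cells was widest for Kcnip1, from 0.245 to 260.0 FPKM, a range of 7.71 on the log2(FPKM + 1) scale. Among members found in 3 to 20 cells, Kcnip4 had the widest (7.41), and other wide ranges were those of Kcnh8 (6.47), Kcnk3 (6.45), Kcnj3 (6.44), Kcnip2 (6.38), Kcnk2 (5.55), Kcna5 (5.53), Kcnt1 (5.41) and Kcnf1 (5.33). These are ranges over single cells at unlike depths, and how much of a range is due to missed molecules was not tested.

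Several genes differed in level between Pomc and Kiss1 cells, some with little overlap. Kcnh4 (chr11:100740378-100759778, minus strand, mm10) was 3.67, 3.71, 3.46, 12.8 and 2.83 FPKM in Kiss1 cells 8, 17, 19, 20 and 23. In Pomc cells it had a lowest value of 0, a median of 0.184 and a highest value of 1.94 FPKM, and in the others a lowest value of 0, a median of 0.0277 and a highest of 5.09. Every Kiss1 cell was thus above every Pomc cell, and above 9 of the 10 other cells, cell 15 being the exception. The mean log2(FPKM + 1) was 2.04 lower in Pomc than in Kiss1 cells and 2.12 higher in Kiss1 than in other cells. Kcnh4 was the one member of the 71 found whose Kiss1 cells all lay above all Pomc cells, or 1.41% of them, beside 0.148% of the 14897 genes found in at least 1 cell. The same held with Pomc cells taken from 500 FPKM and after rescaling each cell to a sum of 1000000, while the remaining alternatives only leave out cells or keep the order of values and could not end it. No member had every Pomc cell above every Kiss1 cell, beside 0.557% of all genes found, and no member separated either type from the other cells. Over all genes found, 0.0134% had every Pomc cell above every other cell and 0% the reverse, 0.094% had every Kiss1 cell above every other cell and 0.114% the reverse.

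Kcnt1 (chr2:25863854-25918273, plus strand) was 37.8, 5.30, 35.1, 34.3 and 14.3 FPKM in the Kiss1 cells in the same order. In Pomc cells it ran from 0.0204 through a median of 1.86 to 7.60 FPKM, and in the others from 0.159 through 8.13 to 42.4 FPKM. In 4 of 5 Kiss1 cells it lay above all Pomc cells, the exception being cell 17, the cell with the fewest genes. Its mean log2 level was 2.99 lower in Pomc than in Kiss1 cells and 1.79 higher in Kiss1 than in other cells.

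Kcnj3 (chr2:55437156-55595525, plus strand) showed the opposite order. Its levels in Kiss1 cells 8, 17, 19, 20 and 23 were 0.306, 0.318, 0.171, 5.61 and 0 FPKM. Pomc cells ran from 0.0787 through a median of 21.05 to 85.8 FPKM, with cells 6 and 12 low and the remaining 6 at 14.99 or more. The others ran from 0 through 0.685 to 24.1 FPKM, so that they overlapped with both. Mean log2 levels were 2.91 higher in Pomc than in Kiss1 cells and 1.91 higher in Pomc than in other cells. The difference from other cells depended on the Pomc threshold. With Pomc cells taken at 2000 FPKM or more it was 0.26, and at 500 FPKM or more it was 0.79. The antisense-strand lincRNA Gm26794 shares 31.1% of the exon bases of Kcnj3 in GENCODE M21, and without strand their reads cannot be told apart.

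Kcna5 (chr6:126532551-126535555, minus strand) was under 1 FPKM in all Kiss1 cells, at 0.645, 0.223, 0.0449, 0 and 0.0858 FPKM. In Pomc cells it was 1 FPKM or more in 6 of 8, with a lowest value of 0.0544, a median of 10.2 and a highest of 29.2 FPKM. In the others it was found in 6 of 10, with a median of 5.28 and a highest value of 45.3 FPKM. Kiss1 cells were thus low against both, by a mean log2 of 2.82 below Pomc cells and -2.14 as Kiss1 minus other cells.

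Kcnip2 and Kcnc4 leaned the same way with more overlap. Kcnip2 was 0.125, 0.953, 0.0697, 0.151 and 14.4 FPKM in Kiss1 cells and had a median of 6.60 FPKM in Pomc cells (0.341 to 82.1), a mean log2 difference of 1.87. Kcnc4 was 0.241, 0.445, 1.03, 0.129 and 4.53 FPKM in Kiss1 cells and had a median of 9.22 FPKM in Pomc cells (0.590 to 21.2), a mean log2 difference of 2.31. It was also 1.43 higher in Pomc than in other cells. Among K2P genes, Kcnk13 was 1.58 higher in Pomc than in Kiss1 cells, from 3 Pomc cells, and Kcnk10 was 1.25 higher in Pomc than in other cells, also from 3 Pomc cells. All 5 cells with Kcnk13 carried the JCb5.2 prefix, whereas most Kiss1 cells carried JCb6. In the JCb6 cells alone, Pomc minus Kiss1 for Kcnk13 was 0.37.

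Kcnk2 and Kcnip4 leaned towards Kiss1 cells. Kcnk2 was 38.5, 1.39, 45.3, 11.1 and 55.8 FPKM in Kiss1 cells and had a median of 6.47 FPKM in Pomc cells (0.211 to 39.7), a mean log2 of -1.54 as Pomc minus Kiss1. Kcnip4 was 69.7, 1.15, 137, 41.9 and 26.2 FPKM in Kiss1 cells and had a median of 7.98 FPKM in Pomc cells (0.429 to 85.9), or -1.56. Cell 17 was the lowest Kiss1 cell for both genes, and all ranges overlapped. Kcnt2 differed by -1.11, but it was found in 2 Kiss1 cells and 1 Pomc cell.

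Against the other cells, Pomc cells were lower in Kcnt1 (mean log2 Pomc minus other -1.20) and Kcnf1 (-1.16), followed by Kcnip1 (-0.98) and Kcnh6 (-0.93). Kiss1 cells were higher than the others in Kcnt2 (1.45), Kcnk12 (1.44) and Kcnab1 (1.35), and lower in Kcnh6 (-1.70), Kcnip2 (-1.35) and Kcnf1 (-1.25). Kcnk12 was 0.129, 0.536, 26.4, 33.4 and 38.6 FPKM in Kiss1 cells, low in cells 8 and 17 and above every other-type cell in the remaining 3. Kcnh6 was in 6 of the 10 other cells, 2 Pomc cells and no Kiss1 cell.

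**Figure D5:**
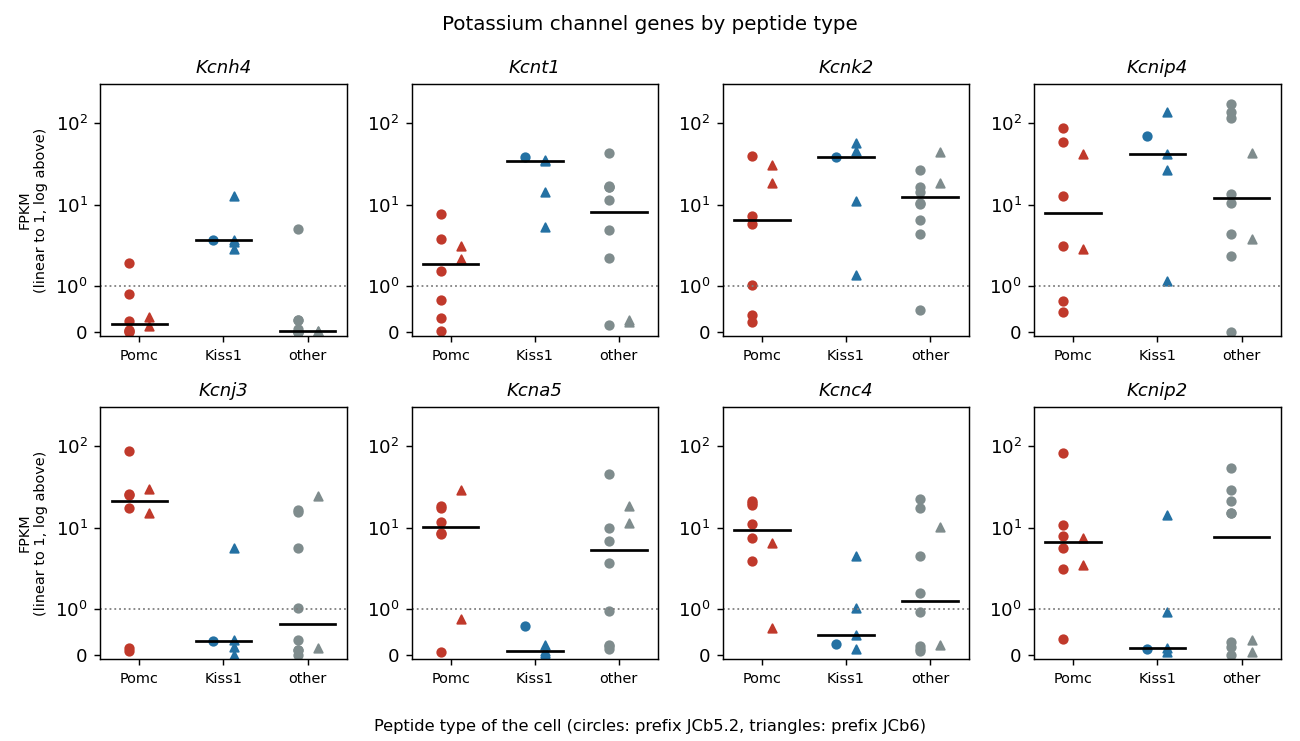
Level of Kcnh4, Kcnt1, Kcnk2, Kcnip4, Kcnj3, Kcna5, Kcnc4 and Kcnip2 in each cell, by peptide type. Each had a mean log2 difference of 1 or more between Pomc and Kiss1 cells. A bar marks each type's median, and the vertical axis is linear up to 1 FPKM and logarithmic above. Kcnh4 is at 2.83 FPKM or more in all 5 Kiss1 cells and at 1.94 or less in all 8 Pomc cells; the other genes overlap between types.

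Counted over the 71 members found, 6 (8.45%) had a mean log2 level higher by 1 or more in Pomc than in Kiss1 cells, beside 19.2% of the 14897 genes found, and 6 (8.45%) the reverse, beside 5.89%. The first set was Abcc8, Kcna5, Kcnc4, Kcnip2, Kcnj3 and Kcnk13, and the second Kcna10, Kcnh4, Kcnip4, Kcnk2, Kcnt1 and Kcnt2. The median difference, Pomc minus Kiss1, was -0.14 over the members and 0.22 over all genes found. The members were thus split evenly by this count, whereas more of all genes found were higher in Pomc cells. Without cell 17, the cell with the fewest genes, 13 members were higher in Kiss1 cells by that measure in place of 6 (18.3% of members, beside 8.59% of all genes found in that setting). Abcc8 was at 1 FPKM or more only in Pomc cells and Kcna10 only in Kiss1 cells, so each passed the filter through the type where it was higher. Among genes in at least 3 cells, 6 members (11.1%, beside 23.9%) were higher in Pomc cells and 5 (9.26%, beside 6.76%) in Kiss1 cells.

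Against the other cells the counts lay near the background in most directions. Pomc cells were higher in 3 members (4.23%, beside 7% of genes found) and lower in 3 (4.23%, beside 5.07%). Kiss1 cells were higher in 7 (9.86%, beside 6.23%) and lower in 6 (8.45%, beside 17.3%). Of those higher, Kcna10 and Kcnd1 were at 1 FPKM or more only in Kiss1 cells, so they passed the filter through that type alone. Among genes in at least 3 cells, Kiss1 cells were higher in 5 members (9.26%, beside 7.06%) and lower in 6 (11.1%, beside 21.8%). Without cell 12, each Pomc count became 5 in place of 3 (7.04%, beside 8.1% of genes found that were higher and 4.97% that were lower). Of the 28 differences named for their size, 8 turned direction in at least 1 of 11 alternative settings. Among these settings, leaving out the filter or keeping genes in at least 3 cells changes only which genes are counted, so neither could turn a direction. Kiss1 minus other for Kcnh6 did not turn but was 0 in the JCb6 cells alone. Within the JCb6 cells alone, with 2 Pomc and 2 other cells, the turns were those of Kcnk2 and Kcnt2 (Pomc against Kiss1), Kcnc4, Kcnk10, Kcnt1 and Kcnh6 (Pomc against other) and Kcnip2 (Kiss1 against other). Kcnk12 (Kiss1 against other) turned in the JCb5.2 cells alone, with 1 Kiss1 cell, and also with Kiss1 at 1000 FPKM or more.

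Other measures moved with peptide type too, and their part in these differences was not tested. Kiss1 cells had fewer genes at 1 FPKM or more (median 6331) than Pomc cells (median 7584) and the others (median 7006). Slc17a6 had a median of 81.3 FPKM in Kiss1 cells and 16.7 FPKM in Pomc cells. The astrocyte list, of which 3 of 7 genes were found in any cell, summed to a median of 92.1 FPKM in Pomc cells (30.8 to 257) and 4.89 FPKM in Kiss1 cells (0.512 to 41.2). Aldoc was found in 21 cells, with a median of 41.1 FPKM over all cells beside 42.1 FPKM for the list. Gfap was found in 3 cells, reaching 165 FPKM in the Pomc cell 12, and Slc1a2 in 4, to 8.30 FPKM. Aqp4, Aldh1l1, Slc1a3 and Gja1 were never at 1 FPKM. The tanycyte and ependymal list, of which 6 of 7 genes were found, had a median of 67.8 FPKM in Pomc cells (2.34 to 259) and 3.59 FPKM in Kiss1 cells (1.40 to 53.9), the highest part being Vim in cell 12. Rax was listed at 0, whereas Vim was found in 14 cells, Foxj1 in 11 (to 16.6 FPKM), Rarres2 in 6 (to 16.7), Frzb in 4 (to 21.3), and Col23a1 (10.2) and Nes (1.67) in 1 each. Cell 12 carried the highest Vim (258 FPKM) and Gfap (165 FPKM).

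Markers of other cells were sparse. The oligodendrocyte list summed to a median of 21.97 FPKM over all cells (0.431 to 82.8) with Mog at 0. The lists for precursors, microglia, endothelial and mural cells had medians of 0.0100, 0.477, 0.392 and 0.420 FPKM and highest sums of 8.85, 8.86, 18.4 and 9.11 FPKM, with C1qa, Cldn5 and Kcnj8 at 0. The potassium channel genes best known from such cells were as sparse. The astrocyte channel Kcnj10 was above 0 in 12 cells but never over 0.0338 FPKM, Kcnj16 never over 0.117 FPKM, and Kcnj8 of pericytes and Kcnn4 of microglia were at 0. Kcna3, found in 4 cells, and Kcnk13, found in 5, are known from microglia and neurons alike.

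Genes that serve potassium channels without carrying the Kcn name were described from a list of 24. All 23 cells had 7 of these, 15 reached 12 or more cells, and 20 were found somewhere. Dpp6, another accessory subunit of Kv4 channels, was in all 23 cells (median 53.8 FPKM, 16.9 to 139), whereas its relative Dpp10 was in 8. The GABA-B receptor gene Gabbr1, upstream of GIRK channels, was in all 23 cells (median 35.8 FPKM, 10.3 to 64.6) and its obligate partner Gabbr2 in 9. Ank3, which anchors KCNQ channels at the axon's start, was in all cells (median 11.6 FPKM), and calmodulin, a subunit of SK and KCNQ channels, was high throughout from Calm2 and Calm3 (medians of 2781 and 206 FPKM). Vapa, which clusters Kv2 channels, was in all cells and Vapb in 17. The Kv1-linked genes Cntnap2, Cntn2 and Lgi1 were in 15, 16 and 12 cells, Dlg4 in 22, Akap5 in 19, Stx1a in 17, Snx27 in 22 and Amigo1 in 11. Of the BK gamma subunit genes, Lrrc55 was in 11 cells, Lrrc26 never reached 1 FPKM, and Lrrc38 and Lrrc52 were listed at 0. Kcnrg was found in 1 cell.

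Counted over the 15 subunit pairs examined, most pairs met in some cell. Kcnd3 with Kcnip1 met most often, in 14 cells, and Kcnj3 with Kcnj9 met in 9 and Kcnd2 with Kcnip4 in 8. Kcnip1 and Kcnip4 were found in 21 and 20 of the 23 cells, so a pair with either would meet often whatever the partner. The pairs not found together at 1 FPKM in any cell were Kcnj11 with Abcc8, Kcnj8 with Abcc9 and Kcnq3 with Kcnq5. Kcna1 with Kcna2, Kcnma1 with Kcnmb4 and Kcnk3 with Kcnk9 each met in 1 cell. A pair can also be missed because 1 of its members was missed, which these counts cannot show.

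The 23 members never at 1 FPKM included 10 listed at 0 in every cell, among them Kcna7, Kcne4, Kcng3, Kcng4, Kcnh3, Kcnj8, Kcnk16, Kcnn4 and Kcns1. The 13 with a value above 0 somewhere were Kcne1, Kcne2, Kcne3, Kcnj2, Kcnj10, Kcnj15, Kcnj16, Kcnk5, Kcnk7, Kcnk18, Kcnmb1, Kcnmb2 and Kcnn1, of which Kcnk7 came closest at 0.848 FPKM. For a gene found in 0 of 23 cells, the 95% Clopper-Pearson interval allows a share of up to 14.8% of cells, for counting error alone.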

How the data were processed

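RNA-seq was made from 23 single cells. Per the submitters' processing notes, reads were handled with CASAVA 1.8, TopHat and Cufflinks on mm10; other versions, the annotation and strand handling were not given in sources used here. FPKM values of all cells came in 1 file that the authors deposited, without counts, so depth is known only in relative terms, and amplification without molecular identifiers makes intervals cover counting error only. Of 23896 rows, 12 without a gene and 286 identical copies were left out, 27 rows whose names had become dates stayed unnamed, and rows of 124 symbols were summed, leaving 23400 genes. All 94 members had 1 row each. Table starts are 0-based and are printed 1-based.

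Genes were counted at 1 FPKM or more, and types were compared as means of log2(FPKM + 1) among genes found in at least 1 cell, with no test, since cells of 1 group are not replicates. Python 3.11.15, pandas 2.3.3 and scipy 1.17.1 were used, and the scripts were tested on simulated data. GENCODE M21 gave exon overlaps. Named genes were a core list of 45 members (42 found in at least 1 cell, summing to a median of 284 FPKM), up to 4 leading members per subfamily, the 10 widest ranges and up to 5 differences per direction and pair of types. A few genes are part of counts and sums but are not reported here by name. Members and lists were chosen with earlier results of these data known. Other thresholds, rescaling, single prefixes, other peptide thresholds, another pseudocount and other filters were tried.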

Additional observations from a re-analysis of the deposited data

How the results depend on the processing

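Counts depended on the detection level. Counting any value above 0, 53 members were in at least 12 cells, 18 in all cells, a median of 54 per cell, and 6 cells had Kcnj11 with Abcc8. At 5 FPKM, 7 members were in at least 12 cells, the median per cell was 14, and 4 subfamilies had a member in at least 12 cells and 6 pairs met. At 10 FPKM, 46 members were in at least 1 cell, 4 in at least 12, the median per cell was 10, and 3 subfamilies and 3 pairs were left. Rescaled to a sum of 1000000, the median member sum was 662 FPKM and 1 cell had Kcnj11 with Abcc8. In the JCb6 cells alone, 2 members were in all cells.

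Members with a mean log2 level higher by 1 or more moved as follows, each count with the share of all genes found under the same setting. In JCb5.2 cells alone, with 1 Kiss1 cell, 13 were higher in Pomc than Kiss1 cells (genes 24.7%), 18 the reverse (17.7%), 5 higher in Pomc than other cells (9.12%), 17 in Kiss1 than other cells (18.2%) and 12 the reverse (23.2%). With a pseudocount of 0.1 FPKM these counts were 13 (34.8%), 14 (11.7%), 8 (18.8%), 12 (13.5%) and 18 (29.8%), and 11 (10.8%) were higher in other than Pomc cells. In JCb6 cells alone, with 2 Pomc and 2 other cells, 10 were higher in Pomc than Kiss1 cells (24.4%), 10 in Pomc than other cells (17%), 16 the reverse (19%) and 13 in other than Kiss1 cells (25.9%). Higher in other than Pomc cells were 6 with Pomc at 2000 FPKM (5.77%), 5 with Kiss1 at 1000 FPKM (4.06%), 6 after rescaling (7.76%) and 5 without cell 12 (4.97%), which also gave 5 higher in Pomc than other cells (8.1%). Rescaling gave 10 higher in other than Kiss1 cells (24.3%). Without cell 17, 13 were higher in Kiss1 than Pomc cells (8.59%).

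Reversed directions were as follows. In JCb6 cells alone, Pomc minus Kiss1 was 0.57 for Kcnk2 and 0.47 for Kcnt2, Pomc minus other was -0.11 for Kcnc4, -2.03 for Kcnk10, 1.55 for Kcnt1 and 1.60 for Kcnh6, and Kiss1 minus other was 1.05 for Kcnip2. Kiss1 minus other for Kcnk12 was -0.34 with Kiss1 at 1000 FPKM and -1.76 in JCb5.2 cells alone. The cause was not tested, beyond the fewer cells in each of these subsets. In the tally kept of recomputed counts and medians, 103 stayed within the spread or within 1.5 times and 38 did not. Cell counts of single genes moved with the detection level too. Counting any value above 0, Abcc8 was in 11 cells in place of 3 and Kcna2 in 23 in place of 12. No paired analysis was possible because all cells form 1 group. Single cells, unknown absolute depth and the overlap of prefix with type limit every comparison of types.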

Other observations

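A few members had low values above 0 in every cell. Kcns3, a modifier of Kv2 pores, was above 0 in all 23 cells within a narrow range, from 0.309 through a median of 0.637 to 1.57 FPKM (cell 17), and Kcnmb2, a BK beta subunit gene, was above 0 in all 23 with 0.293 FPKM at most. At 1 FPKM or more, Kcns3 was found in 1 cell and Kcnmb2 in none. Whether such low values come from transcripts of these genes was not tested. In all, 18 members were above 0 in every cell, and most of those were broad genes such as Kcnip1, Kcnk2 and Kcnn3.

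At the other end, 13 members were at 1 FPKM or more in a single cell. Cell 9 held Kcna1 (4.42 FPKM) and Kcnmb3 (27.6 FPKM), cell 5 held Kcnab3 (14.7 FPKM) and Kcnk15 (4.60 FPKM), and cell 20 held Kcnd1 at 32.4 FPKM. Cell 15 had the highest level of Kcna5, Kcnip3, Kcnn3, Kcne1l, Kcng1 (15.3 FPKM, its sole cell), Kcnj1 and Kcnj14.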
